A study of Mus musculus with 6 samples.

Results

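The insulin-like growth factor (IGF) genes were followed in cells of the subventricular zone (SVZ) after a cortical stroke. They are the ligands Igf1 and Igf2, the receptors Igf1r, Igf2r and Insr, and the binding proteins Igfbp2, Igfbp3, Igfbp4 and Igfbp5. These 9 of the 34111 genes in the count table were taken by name, with earlier results of these data known. From the same cells, the study reports Igf2 signalling in uninjured mice only. It lists Igfbp4 among the pathways weakened 1 day after stroke and raised at 7 days. They are described in microglia, in neural stem and progenitor cells (NSPCs) and in the subclusters of each. IGF1 and IGF2 are small secreted proteins that bind the receptor tyrosine kinase IGF1R and, more weakly, the related insulin receptor INSR, which act through insulin receptor substrates on the PI3K-AKT-mTOR and MAP kinase pathways. IGF2R binds IGF2 and takes it into the cell for breakdown, and the IGFBPs hold IGFs in the extracellular space, so that they can either limit or prolong their action. In the adult SVZ, IGF2 is known as a product of the choroid plexus that reaches stem cells through the cerebrospinal fluid, and IGF1 as a product of microglia, among other cells.

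All mice carried Nestin-CreERT2:R26-yfp, in which tamoxifen, given to the adult mice, turns on a yellow fluorescent protein (YFP) in cells that use the Nestin promoter. The groups were uninjured mice, mice 1 day after photothrombosis (PT D1) and mice 7 days after it (PT D7). In photothrombosis a cortical vessel bed is closed with the dye Rose Bengal and light, and the lateral SVZ of the same hemisphere was dissected, away from the lesion. CD11b+ CD45low microglia and YFP+ NSPCs were sorted 1 cell per well, so the NSPCs are those with past Nestin promoter activity, and the labels and methods do not say how many mice stand behind a library. Each group had 2 libraries of 192 wells. The uninjured and PT D1 libraries are called 1 and 2. The PT D7 libraries are called a and b here, because the cell names do not clearly tell which is which.

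The table held 658 cells that passed the authors' quality control. Of these, 416 were microglia with 2231311 unique molecular identifiers (UMIs, tags used to count captured mRNA molecules) and 222 were NSPCs with 1572957. The other 20 were a mixed cluster that the authors call Unknown/Ependymal. A library held 54 to 84 microglia and 15 to 61 NSPCs, with a median of 4854.5 UMIs per microglial cell and 6449 per NSPC. The authors named the classes from the same counts, and the classes differed in their summed markers. The 10 microglia markers summed to between 14133 and 23300 UMIs per 1000000 UMIs (CPM) in microglia and to between 941 and 2776 in NSPCs, and the 10 NSPC markers to between 5074 and 7539 CPM in NSPCs and to between 220 and 968 in microglia. Single cells often held markers of both classes. The next counts follow the order uninjured 1 and 2, PT D1 1 and 2, and PT D7 a and b. Fewer than 3 of the 10 microglia markers were found in 5 of 16, 7 of 59, 6 of 19, 22 of 52, 12 of 15 and 27 of 61 NSPCs. Fewer than 3 of the 10 NSPC markers were found in 57 of 71, 30 of 84, 68 of 71, 65 of 76, 47 of 54 and 40 of 60 microglia. The source of these UMIs was not tested. Both uninjured libraries stood apart in RNA of the choroid plexus, the secretory tissue of the ventricles, whose main transcript is Ttr. Ttr was found in 98.6 to 100% of the cells of the uninjured libraries and in 16.4 to 24.1% of the microglia and NSPCs of each PT library. The well barcodes recur between libraries: of 180 barcode numbers seen, 164 held a cell in at least 2 libraries. Each mRNA is tagged at its 3′ end, so CPM needs no correction for gene length, and intervals given with levels are 95% intervals for counting error only.

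IGF1 is a growth factor that activated microglia are known to release. Igf1 transcripts were rare in these microglia, with 38 UMIs in 19 of 416 cells. The level of Igf1 in microglia was 8.24 and 15.0 CPM in uninjured 1 and 2, 2.78 and 8.93 CPM in PT D1 1 and 2, and 64.4 and 13.5 CPM in PT D7 a and b. PT D7 a alone stood above the rest, and PT D7 b lay between the uninjured libraries. NSPCs held 4 Igf1 UMIs, and their 2 PT D7 libraries held none, which allows up to 36.4 CPM in PT D7 a and 7.58 CPM in PT D7 b.

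Within microglia, Igf1 lay mostly in the subcluster that the authors call Disease-associated MG. Its 37 cells, 6.74% of the UMIs of the whole table with the mixed cells counted, held 24 of the 43 Igf1 UMIs of all cells. The level there was 89.2 CPM (57.2 to 133), against 14.8 CPM (4.80 to 34.5) in Unknown MG, 5.96 CPM (1.93 to 13.9) in Homeostatic MG, 5.46 CPM (1.13 to 16.0) in Activated MG and 4.24 CPM (0.107 to 23.6) in Development-associated MG. The intervals of the last 4 overlap each other, and that of Disease-associated MG lies above all of them. The subclusters were drawn by the authors from the same counts, so this is a description and not a test. Inside Disease-associated MG the UMIs were uneven, with 17 in the 16 cells of PT D7 a, 1 in the 13 cells of PT D7 b and 4 in the 5 cells of uninjured 2. Of the 17 in PT D7 a, 11 were in 1 cell and 4 in another, each of which held at most 1 Ttr UMI. A UMI of Igf1 was found in 24.3% of Disease-associated MG and, after thinning each cell to 1000 UMIs, in 8.11%. Igf1 was too low for the filter of the test between conditions, and its change was not tested there.

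**Figure D1:**
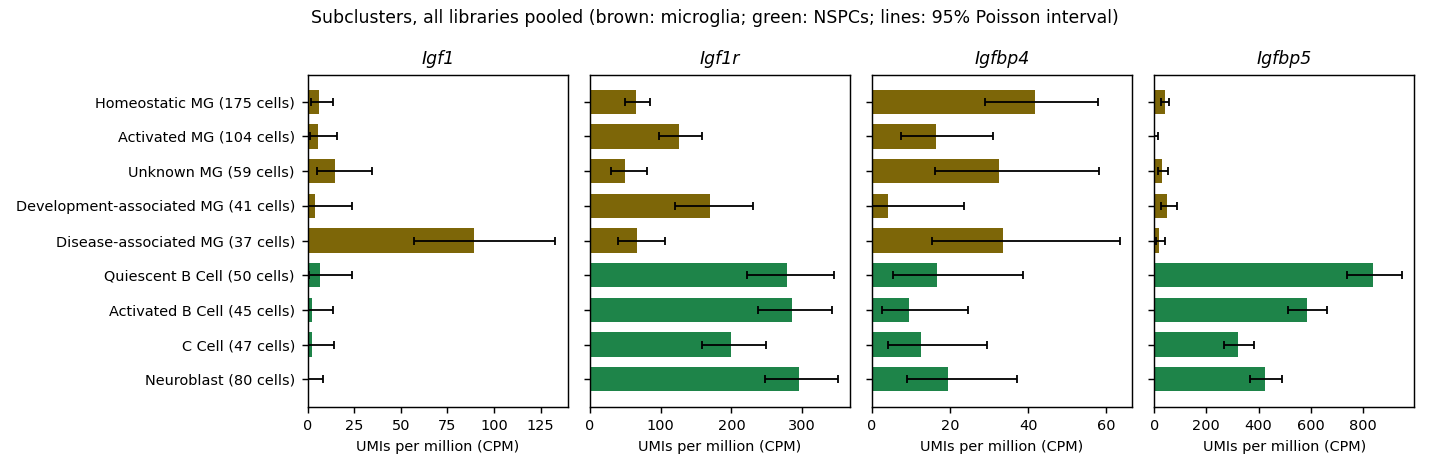
Level of Igf1, Igf1r, Igfbp4 and Igfbp5 (CPM, horizontal axis) in each of the 5 microglial and 4 NSPC subclusters over all libraries, with 95% Poisson intervals as lines. Igf1 is highest in Disease-associated MG at 89.2 CPM and Igfbp5 in quiescent type B cells at 840 CPM, while Igf1r is at or above 200 CPM in all 4 NSPC subclusters and at or under 170 CPM in the 5 microglial ones.

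IGF2, the other ligand, is a fetal growth factor that in the adult brain is made mainly by the choroid plexus and the meninges. In microglia the Igf2 transcript was at 126 and 162 CPM in uninjured 1 and 2, 30.6 and 22.3 CPM in PT D1 1 and 2, and 30.5 and 0 CPM in PT D7 a and b. Both uninjured libraries lay above all 4 PT libraries. NSPCs followed the same order, with 51.6 and 94.5 CPM in uninjured 1 and 2, 0 and 5.92 CPM in PT D1 1 and 2, and 0 and 10.1 CPM in PT D7 a and b. The zeros allow up to 20.9 CPM in the NSPCs of PT D1 1 and 36.4 CPM in those of PT D7 a, and up to 10.1 CPM in the microglia of PT D7 b.

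Tests set 2 libraries against 2, on the UMIs that a class had in each library. A gene was called where the quasi-likelihood test of edgeR, with Benjamini-Hochberg adjustment, gave an adjusted p under 0.05. Nothing in the sources used here says that the 2 libraries of a group came from separate mice, so the p-values measure the spread between libraries, which may be technical, and an exact permutation test of 2 against 2 could not go below 0.33. At PT D1 against uninjured, 5.7% of the 4846 genes tested in microglia and 2.12% of the 4907 in NSPCs were called. Of the 9 IGF genes 5 passed the filter on low counts in microglia (Igf2, Igf1r, Insr, Igfbp4 and Igfbp5) and 4 in NSPCs (the same without Igfbp4), and 1 was called in each class. That gene was Igf2 in both, and it fell, beside 2.97% of all genes tested in microglia and 1.08% in NSPCs that were called lower. Its log2 fold change was -2.33 (SE 0.56, n = 2 against 2 libraries) in microglia, with an adjusted p of 0.0343 by edgeR, and -4.23 (SE 0.81, n = 2 against 2) in NSPCs, with an adjusted p of 0.0043. At PT D7 the log2 fold change of Igf2 against uninjured was -2.99 (SE 0.65) in microglia and -3.30 (SE 0.72) in NSPCs, and edgeR's adjusted p was 0.194 and 0.100, so neither was called. This fall was called in 5 of 11 alternatives in microglia and in 4 of 9 in NSPCs, with adjusted p from 3.95e-07 to 0.616 and from 0.000203 to 1.0, and its log2 value ran from -8.77 to -1.92 and from -7.27 to -3.01 when a library was left out. Only 0.165% of genes in microglia and 0.0815% in NSPCs were called in that comparison. The fall in microglia at PT D1 was not called without uninjured 1 (edgeR adjusted p 0.128), without uninjured 2 (0.175) or by DESeq2 (0.0722). That in NSPCs rests on 2 Igf2 UMIs at PT D1, both in PT D1 2, without which it was not called. Its log2 value ran from -7.34 to -3.75 when a library was left out. Both such ranges for Igf2 in NSPCs hold 5 fits, since Igf2 passed the filter on low counts in only 5 of the 6. Its uninjured NSPC counts were uneven, with 6 UMIs in uninjured 1 and 47 in uninjured 2.

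**Figure D2:**
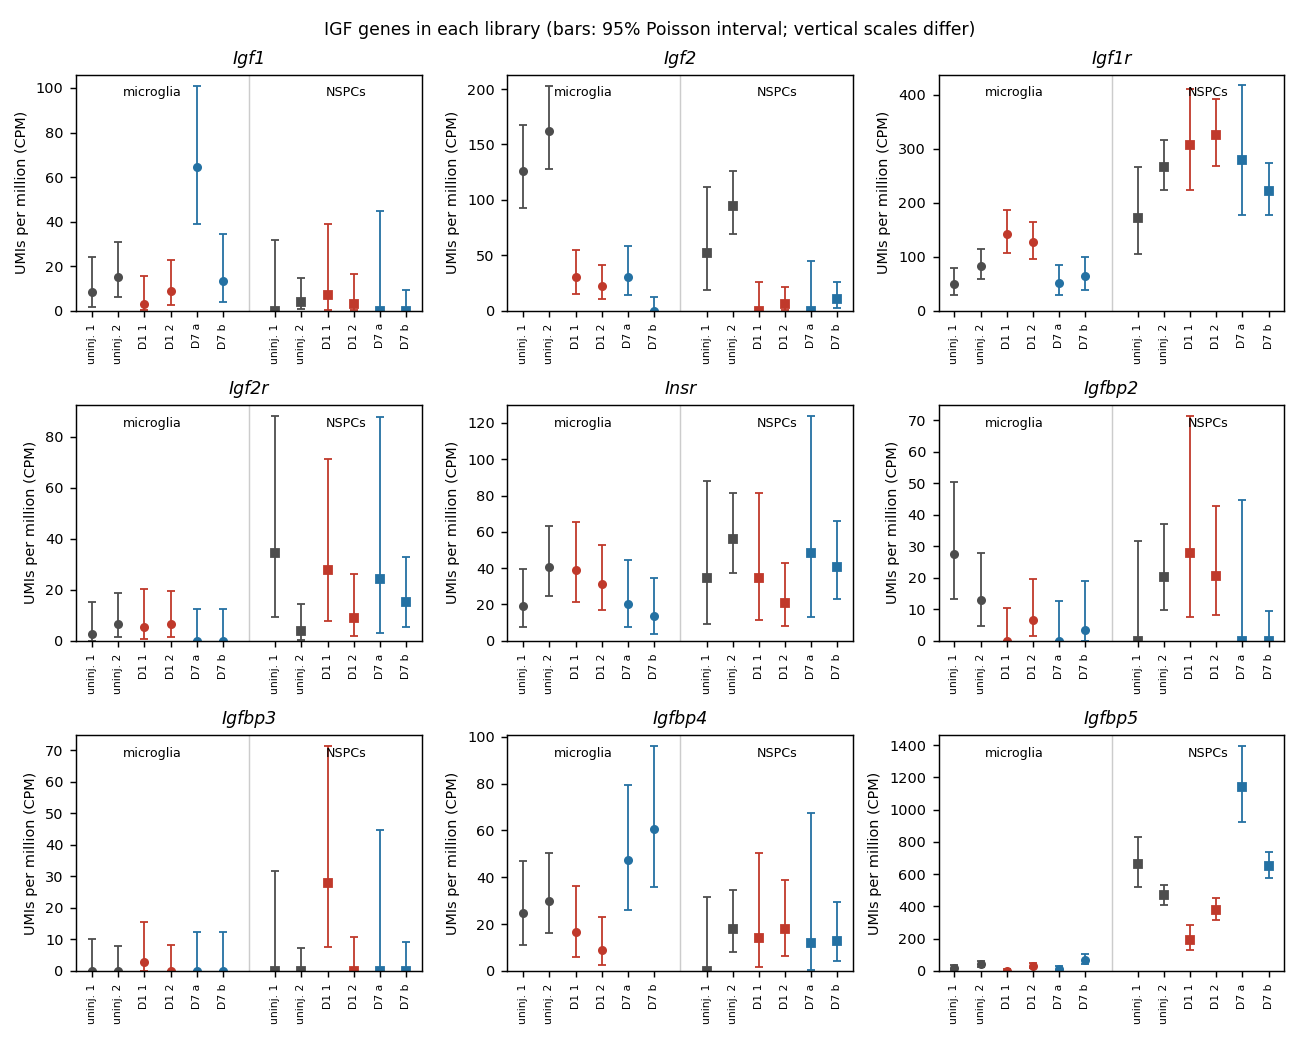
Level of the 9 IGF genes (CPM, vertical axis, with its own scale in each panel) in the microglia (circles, left) and NSPCs (squares, right) of each library, with 95% Poisson intervals. Grey is uninjured, red PT D1 and blue PT D7. Igf2 is highest in the uninjured libraries of both classes, Igf1r in microglia is highest in the 2 PT D1 libraries, and Igfbp5 in NSPCs is lowest in the 2 PT D1 libraries.

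Ttr, which encodes the thyroid hormone carrier transthyretin and marks choroid plexus epithelium, moved with Igf2. In microglia Ttr had 3585 and 1951 UMIs in uninjured 1 and 2, 199 and 190 in PT D1 1 and 2, and 159 and 55 in PT D7 a and b. In NSPCs it had 164 and 1664 UMIs in uninjured 1 and 2, 6 and 9 in PT D1 1 and 2, and 4 and 17 in PT D7 a and b. At PT D1 the log2 fold change of Ttr was -3.74 (SE 0.55) in microglia and -6.32 (SE 0.41) in NSPCs, with edgeR adjusted p of 0.00315 and 3.47e-10. Enpp2, another choroid plexus transcript, had -3.87 (SE 0.51) and -3.88 (SE 0.54), with edgeR adjusted p of 0.00157 and 0.000162. Enpp2 was also seen where Ttr was low. The 5 mixed cells of PT D7 a had 1257 CPM of Enpp2 beside 83.8 CPM of Ttr and 40630 CPM of oligodendrocyte markers. Both log2 changes of Ttr were more negative than those of Igf2.

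Besides Ttr and Enpp2, 13 further markers of the choroid plexus were summed. In microglia they came to 428 and 205 CPM in uninjured 1 and 2, where 13 of the 13 had a UMI, and to 33.7 to 71.2 CPM in the PT libraries, where 4 to 7 did. In NSPCs they came to 60.2 and 191 CPM in uninjured 1 and 2 and to 13.9 to 36.4 CPM in the PT libraries. These sums were higher in the uninjured libraries of both classes, but only 3 of the 13 genes, with 7 UMIs, were found in the NSPCs of uninjured 1, within the 1 to 4 of the PT libraries. With Ttr and Enpp2 the 15 genes came to 10860 and 4823 CPM in the microglia of uninjured 1 and 2 and 229 to 675 CPM in the PT libraries, and to 1584 and 3957 CPM against 77.0 to 133 CPM in NSPCs. Markers of fibroblasts, which also make Igf2, summed to 41.2 and 59.8 CPM in the microglia of uninjured 1 and 2. In PT D1 1 and 2 they came to 16.7 and 141 CPM, and in PT D7 a and b to 17.0 and 60.7 CPM. The fibroblast sums of uninjured and PT libraries overlapped. Border-associated macrophage markers in microglia were likewise highest in PT D1 2, at 1224 CPM, against 136 to 384 CPM in the other libraries. Markers of endothelial and mural cells, on 8 to 29 UMIs a library, also separated in microglia, with 79.6 and 47.0 CPM in uninjured 1 and 2 and 20.1 to 30.5 CPM in the PT libraries, and overlapped in NSPCs, with 17.2 and 44.2 CPM against 13.9 to 97.0 CPM. How much of the difference in Igf2 between conditions comes with RNA of these cell types was not tested.

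**Figure D3:**
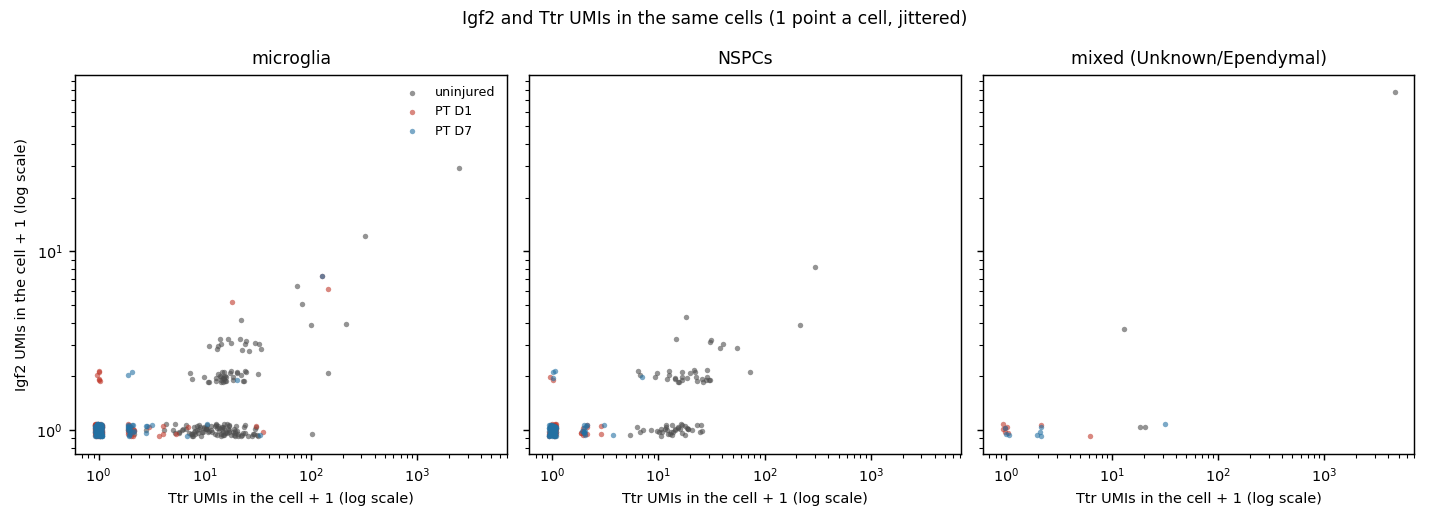
Igf2 UMIs (vertical axis) against Ttr UMIs (horizontal axis) in the same cell, each plus 1 and on log scales, in microglia, NSPCs and the mixed cells, with 1 jittered point per cell. Nearly all uninjured cells lie to the right of 0 Ttr UMIs, and the cells with the most Igf2, at 79, 27 and 12 UMIs, are also those with the most Ttr, at 4657, 2389 and 340 UMIs.

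Igf2 and Ttr were also compared in the same cells. The cell with the most Igf2 was a mixed cell of uninjured 2 with 79 Igf2 and 4657 Ttr UMIs, followed by a microglial cell of uninjured 1 with 27 and 2389 and a microglial cell of uninjured 2 with 12 and 340. Among the microglia of uninjured 1, Igf2 was at 239 CPM in the 35 cells with a Ttr level above the library's median and at 21.3 CPM in the 36 others. In uninjured 2 it was at 282 CPM in the 42 cells above the median and at 76.8 CPM in the 42 others. NSPCs showed less of this. In those of uninjured 1, Igf2 was at 48.8 CPM in the 8 cells above the median and at 53.2 CPM in the 8 others. In those of uninjured 2 it was at 129 CPM in 29 cells and at 72.3 CPM in 30. In the microglia of PT D1 1, 10 of 11 Igf2 UMIs were in the 14 cells with any Ttr, and in those of PT D7 a, 9 of 9 were in the 13 such cells. PT D1 2 did not share this, since 5 of its 10 Igf2 UMIs were in 63 microglia with no Ttr UMI. A single cell at barcode number 36 held 6 of these Igf2 UMIs in PT D1 1, 5 in PT D1 2 and 6 in PT D7 a. Among NSPCs, 2 of 2 Igf2 UMIs in PT D1 2 and 3 of 4 in PT D7 b were in cells with no Ttr UMI. Across cells, those at number 36 included, the Pearson correlation of Igf2 and Ttr levels was 0.54 in 155 uninjured microglia. It was 0.47 in 147 at PT D1, of which 9 held Igf2, and 0.60 in 114 at PT D7, of which 4 did. It was 0.45 in 75 uninjured NSPCs and between -0.07 and 0.05 in NSPCs of the PT groups, where Ttr was nearly absent. For Igf1r and Igfbp5 with Ttr it was at most 0.14 in uninjured microglia. For Igfbp2 with Ttr it was 0.39 in uninjured microglia and 0.47 in uninjured NSPCs. At PT D1 the value for Igfbp2 was -0.05 in microglia and -0.11 in NSPCs, and at PT D7 it was 0.33 in microglia. Cells of a library are not replicates, so these values describe the cells and carry no test.

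The ratio of the transcripts was also compared. Igf2 came to 24.8 UMIs per 1000 Ttr UMIs (20.9 to 29.1) in microglia and 31.7 (24.0 to 41.0) in NSPCs over all libraries, intervals that overlap. By library the ratio in microglia was 12.8 (9.38 to 17.2) in uninjured 1, 39.0 (30.6 to 49.0) in uninjured 2, 55.3 (27.2 to 101) and 52.6 (24.8 to 98.9) in PT D1 1 and 2, and 56.6 (25.4 to 110) in PT D7 a, and PT D7 b had 0 Igf2 beside 55 Ttr UMIs. In NSPCs it was 36.6 (13.2 to 81.4) in uninjured 1 and 28.2 (20.7 to 37.7) in uninjured 2. The microglia of uninjured 1 lay below those of the other libraries with Igf2, and 27 of their 46 Igf2 UMIs and 2389 of their 3585 Ttr UMIs were in 1 cell. In the uninjured libraries the ratio had overlapping intervals in homeostatic microglia at 21.0 (17.0 to 25.6), quiescent type B cells at 28.0 (12.7 to 53.9), type C cells at 22.0 (11.6 to 37.9) and neuroblasts at 28.4 (17.5 to 43.7). It was 56.8 (26.8 to 107) in activated type B cells, above the interval of homeostatic microglia and overlapping those of the other NSPC subclusters. It was 12 (3.26 to 31.1) in Unknown MG, 34.3 (19 to 57.2) in Disease-associated MG and 95.2 (24.8 to 262) in the 3 uninjured Development-associated MG. Development-associated MG at PT D1 had a higher ratio still, with 5 Igf2 and 5 Ttr UMIs in 36 cells.

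Some of the Ttr-rich cells shared a barcode number, and whether UMIs of a cell in one library were counted at the same number in another was not tested, so the Igf2 and Ttr counts of the PT libraries are given with and without them. At number 36 the microglia of uninjured 2, PT D1 1, PT D1 2 and PT D7 a held 340, 134, 137 and 118 Ttr UMIs and 12, 6, 5 and 6 Igf2 UMIs. At number 148 the microglia of uninjured 1 held 2389 Ttr UMIs, and the cells of that number in the other 5 libraries held between 20 and 78. Over 7 numbers at which some cell had at least 100 Ttr UMIs there were 24 cells. Without them the microglia of PT D1 1 and 2 and PT D7 a kept 5, 5 and 2 Igf2 UMIs beside 30, 15 and 21 Ttr UMIs, or 167 (50.5 to 434), 333 (94.8 to 965) and 95.2 (10.8 to 390) per 1000 Ttr UMIs. The uninjured microglia then had 18.0 (10.0 to 29.8) and 39.8 (30.2 to 51.7), so that the intervals of both PT D1 libraries lay above that of uninjured 1, and that of PT D1 2 also above that of uninjured 2. Without these cells Igf2 in microglia at PT D1 still fell against uninjured, by 2.67 on the log2 scale with an edgeR adjusted p of 0.0303. Too few uninjured cells had under 3 Ttr UMIs to test Igf2 among such cells, with 3 of 71 and 0 of 84 microglia and no NSPC.

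IGF1R is the main signalling receptor for both ligands. Its transcript was the most abundant of the receptors, at 89.2 CPM (77.2 to 102) in microglia and 266 CPM (241 to 292) in NSPCs. After thinning to 1000 UMIs per cell, 7.69% of microglia and 21.6% of NSPCs had an Igf1r UMI, and without thinning 31.7% and 74.8%. In microglia it was at 49.4 and 83.3 CPM in uninjured 1 and 2, 142 and 127 CPM in PT D1 1 and 2, and 50.9 and 64.1 CPM in PT D7 a and b. Both PT D1 libraries lay above the other 4, whose values overlapped. The log2 fold change in microglia was 1.13 (SE 0.31) at PT D1 against uninjured and -1.13 (SE 0.33) at PT D7 against PT D1, with edgeR adjusted p of 0.0579 and 0.0869, so neither was called.

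The microglial subclusters differed in Igf1r along with the condition. Activated MG, all 104 of which came from PT D1, were at 142 CPM in PT D1 1 and 103 CPM in PT D1 2. Development-associated MG, of which 35 of 41 came from PT D1 2, were at 155 CPM there. Homeostatic MG were at 57.2 and 75.6 CPM in uninjured 1 and 2 and at 48.0 and 65.1 CPM in PT D7 a and b, and Disease-associated MG at 64.8 and 42.7 CPM in PT D7 a and b. Only 1 Homeostatic MG cell was found at PT D1, so subcluster and condition cannot be told apart for this gene. Without Development-associated MG the log2 fold change of Igf1r at PT D1 was 0.93 (edgeR adjusted p 0.0751).

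In NSPCs Igf1r was at 172 and 267 CPM in uninjured 1 and 2, 306 and 326 CPM in PT D1 1 and 2, and 279 and 222 CPM in PT D7 a and b. The PT D1 libraries were again the highest, and the PT D7 values lay among the uninjured ones or just above. The log2 fold change at PT D1 was 0.36 (SE 0.27, edgeR adjusted p 0.592). The difference between microglia and NSPCs in this change was tested as an interaction with the library as a block and was 0.60 (SE 0.47, edgeR adjusted p 0.904). Over all libraries the 4 NSPC subclusters had 296 CPM (248 to 350) in neuroblasts, 286 (237 to 342) in activated type B cells, 279 (222 to 345) in quiescent type B cells and 200 (158 to 249) in type C cells, and neighbours in this order had overlapping intervals. Igf1r came to 176 UMIs per 1000 NSPC marker UMIs (150 to 205) in microglia and 41.3 (37.4 to 45.5) in NSPCs. By library the ratio in microglia ran from 86.1 in uninjured 2 to 646 in PT D1 1, which held 79 marker UMIs. The source of the Igf1r UMIs in microglia was not tested.

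INSR, the insulin receptor, also binds IGF2 in one of its splice forms. In microglia Insr was at 19.2 and 40.6 CPM in uninjured 1 and 2, 38.9 and 31.3 CPM in PT D1 1 and 2, and 20.3 and 13.5 CPM in PT D7 a and b. In NSPCs it was at 34.4 and 56.3 CPM in uninjured 1 and 2, 34.8 and 20.7 CPM in PT D1 1 and 2, and 48.5 and 40.4 CPM in PT D7 a and b. The conditions overlapped in each class except that PT D7 lay below PT D1 in microglia and above it in NSPCs. None of its 6 comparisons within a class was called, and the log2 fold changes ran from -1.06 (SE 0.55) in NSPCs at PT D1 against uninjured to 0.74 (SE 0.59) in NSPCs at PT D7 against PT D1. Levels over all libraries were close, at 28.7 CPM (22.1 to 36.6) in microglia and 40.7 CPM (31.3 to 52.0) in NSPCs.

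IGF2R, the receptor that removes IGF2 and carries lysosomal enzymes, was barely seen. Igf2r had 9 UMIs in 9 microglia and 21 UMIs in 16 NSPCs, or 4.03 CPM (1.84 to 7.66) and 13.4 CPM (8.26 to 20.4). Type C cells had the highest level at 25.3 CPM (12.1 to 46.5), next to activated type B cells at 14.4 CPM (5.29 to 31.4). No microglial cell of PT D7 held a UMI of it, which in PT D7 a allows up to 10.2 CPM and in PT D7 b up to 10.1 CPM. Igf2r was not tested between conditions.

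IGFBP5 was the binding protein gene with the most UMIs in NSPCs, 819, and had 63 in microglia. Igfbp5 in NSPCs was at 663 and 471 CPM in uninjured 1 and 2, 195 and 379 CPM in PT D1 1 and 2, and 1139 and 652 CPM in PT D7 a and b. The 2 PT D1 libraries were the lowest, while uninjured 1 and PT D7 b had nearly the same value. The 10 NSPC markers were also lowest at PT D1, with 6696 and 6843 CPM in uninjured 1 and 2, 5074 and 5386 CPM in PT D1 1 and 2, and 7539 and 7010 CPM in PT D7 a and b. Per 1000 UMIs of these markers Igfbp5 came to 99.0 (77.3 to 125) and 68.8 (60.0 to 78.5) in uninjured 1 and 2, 38.4 (25.3 to 56.0) and 70.4 (58.4 to 84.2) in PT D1 1 and 2, and 151 (120 to 188) and 93.0 (81.6 to 106) in PT D7 a and b. On this scale PT D1 2 was level with uninjured 2, while PT D7 a lay above both PT D1 libraries and the interval of PT D7 b overlapped that of PT D1 2. The 10 markers hold genes of both neuroblasts and quiescent type B cells. The next values follow the order uninjured 1 and 2, PT D1 1 and 2, and PT D7 a and b. In NSPCs, 6 neuroblast markers were at 4381 and 4874, 2889 and 2709, and 4582 and 4755 CPM. The 7 quiescent type B markers were at 4140 and 4388, 3578 and 6358, and 7091 and 4290 CPM, with PT D1 2 above both uninjured libraries. Oligodendrocyte markers were at 250 and 1015, 111 and 503, and 655 and 832 CPM. The part of any of these markers in the change of Igfbp5 was not tested. From PT D1 to PT D7, 0.632% of the 4907 genes tested in NSPCs were called, and of the 4 IGF genes tested 1 was, Igfbp5. It rose, as did 0.224% of all genes tested, with a log2 fold change of 1.51 (SE 0.29, n = 2 against 2) and an edgeR adjusted p of 0.0127. At PT D1 against uninjured its log2 fold change was -0.93 (SE 0.29, edgeR adjusted p 0.103), and at PT D7 against uninjured 0.57 (SE 0.28, edgeR adjusted p 0.995). The rise kept its side of the threshold when any 1 library was left out, with log2 values from 1.12 to 2.15. It was not called by DESeq2 (adjusted p 0.053). Without NSPCs that held 3 or more microglia markers, PT D1 1 kept 6 cells, under the 10 needed per library. That fit set PT D1 2 alone, with 22 cells, against PT D7, and its log2 fold change was 1.26.

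Igfbp5 also differed among the NSPC subclusters when all libraries were pooled. Quiescent type B cells, the dormant stem cells, had 840 CPM (740 to 950), activated type B cells 584 CPM (513 to 662), neuroblasts 426 CPM (368 to 490) and type C cells, the fast-dividing progenitors, 321 CPM (268 to 382). Only neuroblasts and type C cells had overlapping intervals. These levels mix the conditions, since 25 of 45 activated but 18 of 50 quiescent type B cells came from PT D1. By library, quiescent and activated type B cells were at 1460 and 650 CPM in uninjured 1 and at 864 and 763 CPM in uninjured 2. They were at 251 and 283 CPM in PT D1 1, 378 and 336 CPM in PT D1 2, and 1100 and 1079 CPM in PT D7 b. The mix of subclusters could differ between libraries, so the change with time is given within each. In quiescent type B cells Igfbp5 was at 1460 and 864 CPM in uninjured 1 and 2, 251 and 378 CPM in PT D1 1 and 2, and 1852 and 1100 CPM in PT D7 a and b, in 3 to 14 cells each. In activated type B cells it was at 650 and 763 CPM in uninjured 1 and 2, 283 and 336 CPM in PT D1 1 and 2, and 1079 CPM in PT D7 b, and PT D7 a had no such cell. In these stem cell subclusters PT D1 lay below both other conditions in every library. In neuroblasts it was at 752 and 261 CPM in uninjured 1 and 2, 166 and 397 CPM in PT D1 1 and 2, and 797 and 637 CPM in PT D7 a and b, so PT D7 lay above PT D1 and uninjured overlapped with both. In type C cells it was at 83.7 and 359 CPM in uninjured 1 and 2, 0 and 514 CPM in PT D1 1 and 2, and 851 and 209 CPM in PT D7 a and b, and the conditions overlapped. Single cells weighed on some of these values, since 30 of the 46 Igfbp5 UMIs of quiescent type B cells in PT D7 a and all 21 UMIs of type C cells in PT D1 2 came from 1 cell each.

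**Figure D4:**
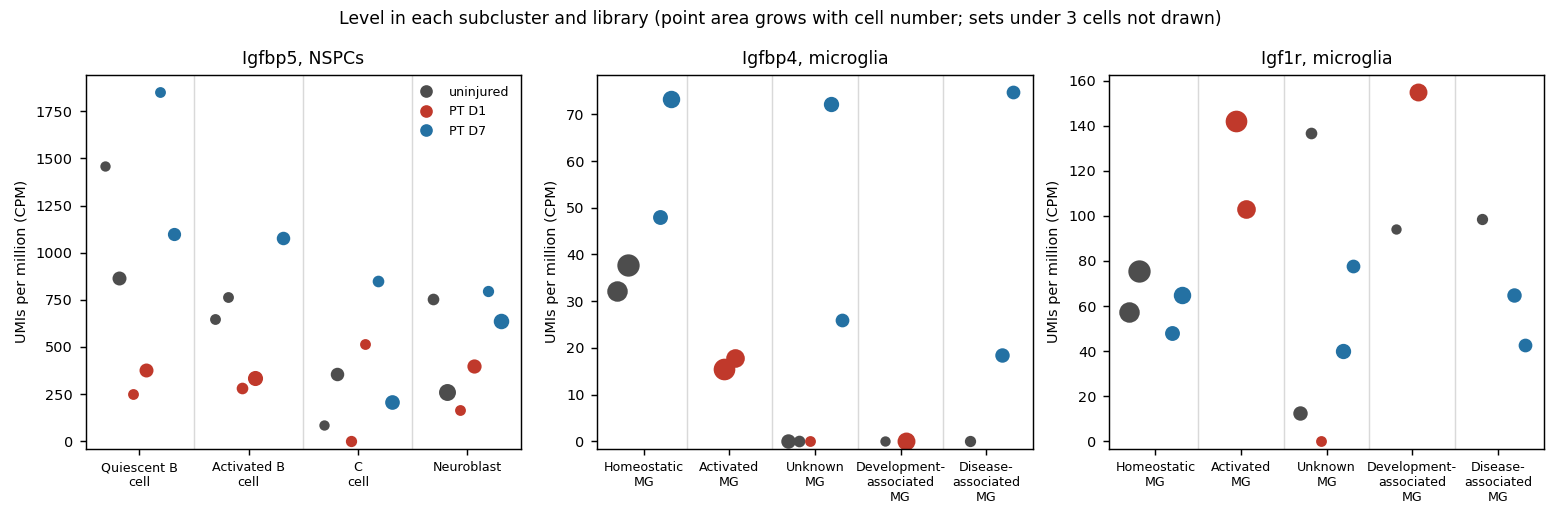
Level (CPM, vertical axis) of Igfbp5 in the NSPC subclusters and of Igfbp4 and Igf1r in the microglial subclusters, with 1 point per library in its condition's colour, larger for more cells, and no point for sets under 3 cells. In quiescent and activated type B cells the PT D1 points of Igfbp5, at 251 to 378 CPM, lie below those of the other conditions. Activated MG appear at PT D1 alone.

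In microglia Igfbp5 was low, at 19.2 and 40.6 CPM in uninjured 1 and 2, 0 and 31.3 CPM in PT D1 1 and 2, and 10.2 and 67.5 CPM in PT D7 a and b. The conditions overlapped and no comparison was called. By subcluster Igfbp5 was at 50.9 CPM (26.3 to 88.9) in Development-associated MG and 40.5 CPM (28.1 to 56.6) in Homeostatic MG. It was at 29.6 CPM (14.2 to 54.4) in Unknown MG and 18.6 CPM (6.04 to 43.4) in Disease-associated MG. Activated MG, found at PT D1 alone, were at 3.64 CPM (0.441 to 13.2), with 2 UMIs in 104 cells. Most Development-associated MG came from PT D1 2, so subcluster and library cannot be told apart. Within each condition the level in microglia went with markers of NSPCs. The 10 NSPC markers summed to 431 and 968 CPM in uninjured 1 and 2, 220 and 339 CPM in PT D1 1 and 2, and 278 and 705 CPM in PT D7 a and b, so that in each condition the library with more NSPC markers also had more Igfbp5. Across conditions this order was not kept, since PT D1 2 had fewer NSPC markers than uninjured 1 but more Igfbp5. Igfbp5 came to 55.7 UMIs per 1000 NSPC marker UMIs (42.5 to 71.8) in microglia and 80.9 (75.2 to 86.9) in NSPCs. These pooled intervals do not overlap. By library the intervals of the classes overlapped in all but PT D7 a, at 36.6 (7.39 to 111) in microglia and 151 (120 to 188) in NSPCs. The ratio in microglia ran from 0 in PT D1 1 to 95.7 in PT D7 b. A UMI of Igfbp5 was found in 11.1% of microglia and 67.1% of NSPCs, and after thinning to 1000 UMIs in 2.88% and 33.3%. Whether microglia make it themselves was not tested.

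IGFBP4 is a secreted binding protein that the protease pappalysin cleaves to release IGFs. In microglia Igfbp4 was at 24.7 and 29.9 CPM in uninjured 1 and 2, 16.7 and 8.93 CPM in PT D1 1 and 2, and 47.5 and 60.7 CPM in PT D7 a and b. The values of the 3 conditions did not overlap, with PT D1 the lowest and PT D7 the highest. Counting intervals did overlap, at 11.3 to 46.9 CPM in uninjured 1, 6.12 to 36.3 in PT D1 1 and 25.9 to 79.6 in PT D7 a. That of PT D1 2, 2.43 to 22.9 CPM, lay below those of both PT D7 libraries. From PT D1 to PT D7, 3.8% of the 4846 genes tested in microglia were called, and of the 5 IGF genes tested 1 was, Igfbp4. It rose, as did 1.69% of all genes tested, with a log2 fold change of 2.18 (SE 0.47, n = 2 against 2) and an edgeR adjusted p of 0.0280. Against uninjured the log2 fold change was -1.0 (SE 0.51, edgeR adjusted p 0.280) at PT D1 and 1.18 (SE 0.41, edgeR adjusted p 0.553) at PT D7. The libraries held 4 to 18 Igfbp4 UMIs each, and the rise was called in 1 of the 6 fits that left out a library, that without PT D1 1, with edgeR adjusted p of 0.0531 to 0.152 in the other 5. It was also not called without microglia that held 3 or more NSPC markers (edgeR adjusted p 0.0549).

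By subcluster, Igfbp4 was at 41.7 CPM (29.0 to 58.0) in Homeostatic MG, 33.5 CPM (15.3 to 63.5) in Disease-associated MG, 32.5 CPM (16.2 to 58.2) in Unknown MG, 16.4 CPM (7.49 to 31.1) in Activated MG and 4.24 CPM (0.107 to 23.6) in Development-associated MG. The intervals of neighbours in this order overlap. In Homeostatic MG, which were found in both uninjured and PT D7, it was at 32.2 and 37.8 CPM in uninjured 1 and 2 and at 48.0 and 73.3 CPM in PT D7 a and b. Its level at PT D1 rests on Activated MG at 15.4 and 17.8 CPM and on Development-associated MG, where 35 cells of PT D1 2 held none. In NSPCs Igfbp4 had 23 UMIs, at 14.6 CPM (9.27 to 21.9), and was not tested. It came to 12.7 UMIs per 1000 UMIs of the 10 microglia markers (8.04 to 19.1) in NSPCs and to 1.48 (1.15 to 1.89) in microglia.

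IGFBP2, the main binding protein of the cerebrospinal fluid, is made by the choroid plexus and by glia. In microglia Igfbp2 had 10 and 6 UMIs in uninjured 1 and 2, 0 and 3 in PT D1 1 and 2, and 0 and 1 in PT D7 a and b, so both uninjured libraries were the highest. All 10 UMIs of uninjured 1 were in the 35 microglia with a Ttr level above the median, and 7 of them in the cell with 2389 Ttr UMIs. In NSPCs it had 0 and 10 UMIs in uninjured 1 and 2, 4 and 7 in PT D1 1 and 2, and none in PT D7, with its highest level in quiescent type B cells at 33.2 CPM (15.9 to 61.1). At PT D1 the cells with Igfbp2 were not those with Ttr, since all 11 UMIs of the NSPCs and all 3 of the microglia were in cells with no Ttr UMI. IGFBP3, the main carrier of IGFs in blood, was nearly absent, with 4 Igfbp3 UMIs in 1 quiescent type B cell of PT D1 1 and 1 in a microglial cell of the same library. Igfbp2 and Igfbp3 were not tested.

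No IGF gene was shown to respond differently in microglia and NSPCs. Of the 5 tested for an interaction of class with condition none was called at PT D1 or PT D7, where 0.24% and 0.0399% of 7514 genes were called by edgeR. The largest difference was that of Igf2 at PT D1, 1.68 (SE 0.98) on the log2 scale with an unadjusted p of 0.087 and an adjusted p of 0.809. The SEs of these differences ran from 0.47 to 1.13, so that only differences of several-fold could have been called.

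Other genes related to IGFs, among them further ligands, binding proteins and proteases, were sparse. Of 18 such genes none passed the filter in microglia and 3 did in NSPCs, and none of these was called. Igfbpl1, a binding protein relative known from young neurons, was at 104 to 194 CPM in NSPCs and at 6.75 CPM or less in microglia. Htra1, a protease that cuts binding proteins, was at 43.0 to 190 CPM in NSPCs, and Ide, the insulin-degrading enzyme, at 20.2 to 83.5 CPM. Igfbp7, a vessel-associated relative, was at 49.4 CPM in the microglia of uninjured 1, where 15 of its 18 UMIs were in 1 cell, and at 8.34 CPM or less in those of the other libraries.

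Downstream of the receptors, 31 of 44 signalling genes were tested in each class. At PT D1 against uninjured, 2 of 31 rose in microglia and 1 of 31 in NSPCs, none fell, and the medians of the log2 fold changes were 0.24 and 0.19, against 0.04 and 0.03 over all genes tested. Of all genes tested, 2.72% in microglia and 1.04% in NSPCs were called higher in that comparison. From PT D1 to PT D7, 4 of 31 fell in microglia and 1 of 31 in NSPCs and none rose, with medians of -0.34 and -0.03, against -0.01 and 0.00 over all genes, of which 2.1% in microglia and 0.408% in NSPCs were called lower. None of the 31 was called at PT D7 against uninjured in either class. The genes called were Socs3, Eif4ebp1, Irs2 and Ptpn1.

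Socs3, an inhibitor of cytokine and insulin receptor signalling, was called in both classes. In microglia it was at 46.7 and 55.5 CPM in uninjured 1 and 2, 322 and 380 CPM in PT D1 1 and 2, and 37.3 and 43.9 CPM in PT D7 a and b, and PT D1 lay far above the rest. It rose at PT D1 by 2.89 (SE 0.27, edgeR adjusted p 0.000484) on the log2 scale and changed by -3.01 (SE 0.29, edgeR adjusted p 0.000498) from PT D1 to PT D7. In NSPCs it rose by 2.54 (SE 0.56, edgeR adjusted p 0.0142) and then changed by -2.63 (SE 0.61, edgeR adjusted p 0.0412).

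Eif4ebp1, a repressor of translation that mTOR inactivates, was at 22.0 and 17.1 CPM in the microglia of uninjured 1 and 2, 111 and 96.0 CPM in PT D1 1 and 2, and 10.2 and 20.2 CPM in PT D7 a and b. It too was highest at PT D1, with log2 fold changes of 2.52 (SE 0.37, edgeR adjusted p 0.00281) at PT D1 and -2.65 (SE 0.41, edgeR adjusted p 0.00495) from PT D1 to PT D7. Irs2, an adaptor of both receptors, and Ptpn1, a phosphatase that acts on them, fell in microglia from PT D1 to PT D7 by 2.23 (SE 0.47, edgeR adjusted p 0.0248) and 1.56 (SE 0.29, edgeR adjusted p 0.0119) on the log2 scale. Their changes in microglia at PT D1 against uninjured were 1.37 (SE 0.38, edgeR adjusted p 0.0576) and 0.75 (SE 0.26, edgeR adjusted p 0.128) and were not called. These comparisons share the PT D1 libraries, so the rise and the fall of a gene are not independent.

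**Figure D5:**
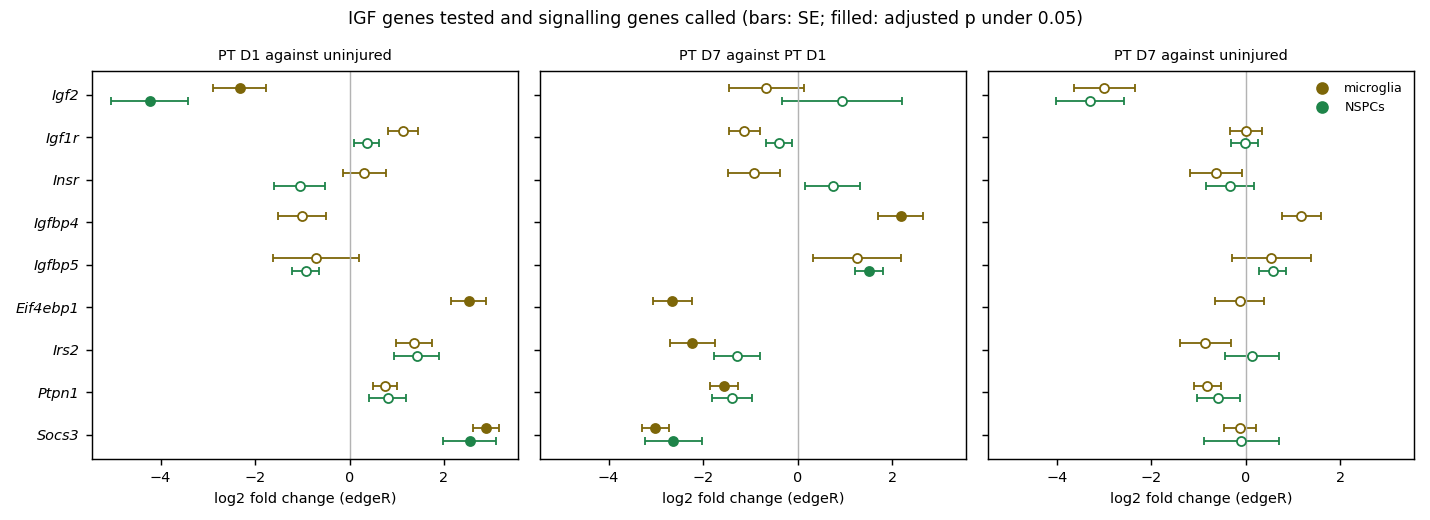
Log2 fold change with its SE (horizontal axis, edgeR) of the IGF genes tested and of the signalling genes called, in microglia (brown) and NSPCs (green), for the 3 comparisons of conditions. Filled points have an adjusted p under 0.05. Igf2 is called at PT D1 in both classes, Igfbp4 in microglia and Igfbp5 in NSPCs from PT D1 to PT D7, and no point is filled for PT D7 against uninjured.

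The genes most like each IGF gene were taken over the 12 sums of class and library, by the Pearson correlation of log2(CPM + 1) among 5139 genes with at least 100 UMIs. For Igf2 they were 5830462I19Rik (0.906), Gm44121 (0.848) and Ttr (0.841), for Igf1r Zwint (0.981), H3f3b (0.968) and Sf3b6 (0.965), for Insr Eps15l1 (0.878), Nisch (0.830) and Cic (0.821), and for Igfbp5 Prim1 (0.985), Pou3f2 (0.982) and 2810417H13Rik (0.979). Of the 12 sums, 6 come from each class, so genes that differ between microglia and NSPCs correlate for that alone, and the sums of both classes of a library are not independent.

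In the mouse genome (GRCm39, GENCODE vM39) Igfbp2 and Igfbp5 lie side by side on chromosome 1, at 72863606-72891634 on the plus strand and 72897091-72914043 on the minus strand. Igfbp3 lies at 7156086-7164179 (minus) and Igfbp4 at 98932064-98945218 (plus) on chromosome 11. Igf2 lies at 142204503-142220694 (minus) and Igf1r at 67601518-67883416 (plus) on chromosome 7, Igf1 at 87693642-87772904 (plus) on chromosome 10, Igf2r at 12901293-12988614 (minus) on chromosome 17 and Insr at 3172061-3329647 (minus) on chromosome 8. The annotation places antisense RNAs across Igf1 (Igf1os), Igf2 (Igf2os) and Igf2r (Airn), and the protein-coding Gm49394 across Igf2 on its own strand. Opposite-strand genes also lie across Igf1r (the protein-coding Pgpep1l and Gm73984), Insr (Gm64081 and Gm16180 among others) and Igfbp3 (Gm73927 and Gm36565). Non-coding RNAs lie on the same strand across Igf1r (Gm73244) and Igf2r (Gm65010). The sources used here do not say whether counting used the strand, so UMIs of these overlapping genes may not be fully separate.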

How the data were processed

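Single cells of the ipsilateral lateral SVZ were sorted into 384-well plates and sequenced by mCEL-Seq2, which counts captured mRNA 3′ ends by their UMIs. Per the labels and the study's methods, the authors demultiplexed with bcl2fastq 2.17.1.14, counted on the mouse build GRCm39 and filtered cells. Beyond a doublet gate in the sort, they dropped cells whose UMI total lay over 3 median absolute deviations from the median, as likely doublets, and kept cells with over 1000 UMIs and at most 25% of them mitochondrial. The authors deposited whole-number UMI counts per gene and cell, not normalized, with a class and subcluster for each cell. The aligner's version and the use of strand are not stated in the sources at hand. The authors also deposited the percent of each cell's UMIs from mitochondrial genes. The other 13 columns of the cell table were not used, and 92 spike-in entries with 0 UMIs were left out.

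UMIs were summed over the cells of each class (microglia, NSPCs) in each library and tested with edgeR 4.0.16 in R 4.3.3 (TMM scaling, filterByExpr, quasi-likelihood test, trended dispersion, all 3 conditions in 1 fit per class), with Benjamini-Hochberg adjustment over all genes tested. The difference between classes was tested as an interaction with the library as a block. The SE given with an edgeR log2 fold change is its absolute value over the square root of the test's F statistic. It was thus derived from the test and is approximate. Library totals were 294984 to 468186 UMIs in microglia and 82504 to 497292 in NSPCs. Levels carry exact Poisson intervals, shares of cells exact binomial ones, and ratios exact binomial ones turned into odds, and an upper limit for 0 counts is 3 counts of the total. Shares were also computed after each cell was thinned to 1000 UMIs. Alternatives were DESeq2 1.42.0, no TMM, no filter, a replicate block, each library left out, and sets of cells left out. The sets of cells without barcode numbers that held a cell with 100 Ttr UMIs, and without Development-associated MG, were chosen after the data were seen. Gene names were those of the table. The genes described are the 9 named members, the signalling genes called in any comparison and the 3 genes most like a tested member. Members and lists were chosen with earlier results of these data known.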

Additional observations from a re-analysis of the deposited data

Results flagged for a closer look

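The 20 cells of the mixed Unknown/Ependymal cluster, which enter no comparison, held more of 3 IGF genes than either class, with intervals above those of microglia and NSPCs. Igf2 was at 440.0 CPM there, and 79 of its 82 UMIs were in 1 cell of uninjured 2 that also held 4657 Ttr UMIs. Igfbp2 was at 236 CPM, with 34 of 44 UMIs in that same cell. Igf2r was at 48.3 CPM (22.1 to 91.7) on 9 UMIs, 3 of them in that cell. Their sources were not tested.

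By its values alone, Igfbp2 at PT D1 lay on opposite sides of uninjured in the classes, below both uninjured libraries in microglia (27.5 and 12.8 CPM in uninjured 1 and 2, 0 and 6.70 CPM in PT D1 1 and 2) and above both in NSPCs (0 and 20.1 CPM in uninjured 1 and 2, 27.8 and 20.7 CPM in PT D1 1 and 2). In NSPCs the 0 of uninjured 1 allows up to 25.8 CPM, and PT D1 2 with 7 UMIs is close to uninjured 2 with 10, so the order there is within counting error. In the fit without a filter on low counts the difference between the changes was -2.74 on the log2 scale (SE 1.35) and was not called (edgeR adjusted p 1.0).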

How the results depend on the processing

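The 37 tests of single IGF genes gave 396 values under alternatives, of which 340 kept direction and side of the threshold, 12 lost a call, 17 gained one and 27 turned direction. No value that turned direction was a call. Without the filter the Igf1 rise in microglia from PT D1 to PT D7, which was not tested otherwise, was 2.73 on the log2 scale (SE 0.71, edgeR adjusted p 0.00908). In the same fit Igf1 at PT D7 against uninjured changed by 1.9 (SE 0.63, edgeR adjusted p 0.51). Of the 23 Igf1 UMIs of PT D7 microglia, 19 were in PT D7 a, and 11 of those in 1 cell.

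Counts of called genes moved by over 1.5 times as follows. In microglia at PT D1 against uninjured (276 genes), DESeq2 gave 101, no filter 541 and the replicate block 727. From PT D1 to PT D7 (184) DESeq2 gave 88, cells with fewer than 3 Ttr UMIs 117, no filter 422 and cells without Development-associated MG 281. At PT D7 against uninjured (8) no filter gave 35, cells without Development-associated MG 19 and cells without 3 markers of the other class 2. In NSPCs at PT D1 against uninjured (104) DESeq2 gave 17 and the replicate block 246. From PT D1 to PT D7 (31) DESeq2 gave 6, cells with fewer than 3 Ttr UMIs 20, no filter 69 and cells without the Ttr-rich barcode numbers 18. Cells without 3 markers of the other class left PT D1 2 as the only PT D1 library, so their count is not given. At PT D7 against uninjured (4) DESeq2 gave 2 and no filter 8. For the interaction at PT D1 (18) no filter gave 11 and DESeq2 0, with 87 genes at an unadjusted p under 0.05. For that at PT D7 (3) DESeq2, no TMM and no filter each gave 0, with 32, 338 and 363 at an unadjusted p under 0.05. The fits of cells with fewer than 3 Ttr UMIs held no uninjured library, since a library with under 10 cells of a class was left out. The causes were not tested.

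With 1 library left out, counts ran from 45 to 538, 46 to 418 and 0 to 38 in microglia at PT D1 against uninjured, PT D7 against PT D1 and PT D7 against uninjured, from 39 to 229, 23 to 109 and 6 to 18 in NSPCs, and from 3 to 23 and 1 to 3 for the interactions. The 0 was without uninjured 1, with 184 genes at an unadjusted p under 0.05 in edgeR. A condition left with 1 library was taken to vary like the others.

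Values that turned direction were small or rested on few UMIs. Igf1r in NSPCs at PT D7 against uninjured became 0.03 by DESeq2, 0.04 without TMM and 0.02 without the filter. Against PT D1 it became 0.48 without cells with 3 markers of the other class, a fit in which PT D1 2 was the only PT D1 library. Igf1r in microglia at PT D7 against uninjured became 0.01 by DESeq2 and 0.04 without the Ttr-rich barcode numbers. The Igfbp5 interaction at PT D1 became -0.36 by DESeq2, -0.06 without TMM and -1.91 without Development-associated MG. With a library left out, log2 values ran from -0.27 to 0.46 for Igf1r in NSPCs and -0.29 to 0.39 in microglia at PT D7 against uninjured, and -0.36 to 0.04 for its interaction at PT D7. At PT D7 against PT D1 they ran from -3.07 to 4.04 for Igf2 in NSPCs, in the 5 fits that tested it, and from -6.37 to 0.41 in microglia. For the Igf2 interaction at PT D7 they ran from -6.03 to 5.26. For the Igfbp4 interaction at PT D7 they ran from -3.22 to 1.75, and for those of Igfbp5 from -4.88 to 0.81 at PT D1 and -2.28 to 0.97 at PT D7. Igfbp5 in microglia ran from -6.39 to 0.12, -0.51 to 6.90 and -1.24 to 1.24 at PT D1 against uninjured, PT D7 against PT D1 and PT D7 against uninjured, and Insr in microglia from -0.08 to 0.91 at PT D1.

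Igf2 per 1000 Ttr UMIs ran from 18.1 to 41.5 in microglia and 29.8 to 60.0 in NSPCs with a library left out, and was 35.8 in microglia without the Ttr-rich barcode numbers. Thinned to 2000 UMIs, the share of cells with a UMI was 8.51% for Igf2, 15.7% for Igf1r and 5.85% for both Insr and Igfbp4 in microglia, and 42.4% for Igf1r, 8.57% for Insr and 44.3% for Igfbp5 in NSPCs.

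Without TMM the median gene moved by -0.13, -0.23 and -0.10 in microglia at PT D1 against uninjured, PT D7 against uninjured and PT D7 against PT D1, and by -0.12 and -0.22 in the interactions, and the share of calls that were higher at PT D1 in microglia went from 47.8 to 33.7%. Same-numbered uninjured and PT D1 libraries deviated together over genes (r = 0.366 in microglia, 0.143 in NSPCs), but only 2 pairs exist and the labels give the number no meaning. Under this replicate block Igf1r in microglia (edgeR adjusted p 0.0169) and Igfbp5 in NSPCs (0.0208) were called at PT D1. Comparisons of cells with fewer than 3 Ttr UMIs against uninjured, and of NSPCs without microglia markers against uninjured, were not run, since too few uninjured cells remained. NSPCs without microglia markers also lacked PT D1 1, of which 6 cells remained, under the 10 needed per library.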
